A study of Bos taurus with 15 samples.

Results

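The mitochondrial enzymes of fatty acid oxidation were described here through 10 genes: CPT1B, SLC25A20, CPT2, ACADVL, ACADL, ACADM, HADHA, HADHB, ACAA2 and ETFDH. They were found on the array by gene name, by gene identifier or by the symbol in the probe description, and they make up 10 of 15664 named genes. They were read by 11 of 21475 probes, each spotted in duplicate, so that 22 of 42990 spots belong to them. HADHA had 2 probes and the other genes 1 each. The array names ACADVL, HADHA, HADHB, CPT1B and ACAA2 by symbol. It carries ACADL, CPT2 and SLC25A20 under gene identifiers, and ACADM and ETFDH could be named only from their descriptions.

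The study compared biceps brachii, a muscle of the upper foreleg, between cattle given prednisolone and control cattle. Total RNA was hybridised to single-colour Agilent bovine arrays, 1 array per sample. The 8 treated animals, P25 to P32, were given an oral dose of 30 mg per head of prednisolone each day over 35 days. Prednisolone is a synthetic glucocorticoid. The 7 controls were C17, C18 and C20 to C24. Age and sex of the animals are not given in the sources used here. RNA of the controls was prepared with an RNeasy Mini kit, whereas RNA of the treated animals was prepared with TRIzol and an RNeasy MinElute cleanup, so group and extraction method cannot be told apart. The treatment field of the controls mentions Finaplix, Revalor and dexamethasone, although every one of these samples is labelled CONTROL and the field does not say that they received any of them. Each number was taken as 1 animal. The p-values measure the spread between these samples.

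Long-chain fatty acids enter mitochondria as carnitine esters, which are made on the outer membrane, carried across the inner membrane and turned back into acyl-CoA in the matrix. Acyl-CoA is then shortened in repeated rounds of dehydrogenation, hydration, a second dehydrogenation and thiolysis, by enzymes that differ in the chain length they prefer. Muscle relies on this pathway during rest, fasting and endurance work, and oxidative slow fibres hold more of its enzymes than glycolytic fast fibres do.

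The tissue label was checked first. All 6 measured genes of a list of skeletal muscle markers were well above background on all 8 treated arrays, and their summed intensity on the log2 scale was 19.9 to 20.1 in controls and 19.7 to 20.1 in treated animals. Transcripts of testis germ cells varied widely within both groups, with a summed log2 intensity of 11.3 to 18.1 in controls and 8.77 to 17.7 in treated animals. The medians were 15.3 and 10.3, and 6 of the 7 genes had a difference below 0, 3 of them at an unadjusted limma p under 0.05 and none after adjustment. All 7 of these genes were measured, 1 was well above background on all 8 treated arrays and PRM2 on none. The protamine gene PRM1 ranged from 10.89 to 17.84 in controls and from 2.25 to 17.48 in treated animals, on the log2 scale. The mean of the list was highest in C20 and P31, so differences are also given without this pair of animals. The part of these transcripts in the group differences of the enzymes was not tested otherwise. Among other marker lists, all 6 adipocyte genes had a difference above 0, against 52.1% of all genes tested. Their summed log2 intensity had a median of 10.9 in controls and 11.9 in treated animals. None of 5 thymocyte and none of 4 endothelial genes were above 0, and 4 of 5 hepatocyte and 1 of 4 leukocyte genes were. Of the adipocyte genes 4 were well above background on all 8 treated arrays, of the thymocyte genes 2 and of the hepatocyte genes 3. The endothelial list had 4 such genes and the leukocyte list 3, while LEP and RAG1 were well above background on 0 of these arrays. An unadjusted limma p under 0.05 was reached by 1 adipocyte gene, higher, and 1 endothelial gene, lower, against 3.2% of all genes tested. After adjustment none of the genes of these lists was called. The part of these lists in the enzyme differences was not tested. Between 72.1% and 87.4% of spots carried a value on an array.

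All 10 enzymes had a value on all 15 arrays. Of these, 9 were well above background on all 8 treated arrays, ETFDH was so on 7, and none was saturated on these arrays. None of the 10 differed between treated and control animals in limma after Benjamini-Hochberg adjustment over all genes, with adjusted p of at least 0.998. The same test called 0 of 15357 genes (0%). An unadjusted p under 0.05 was reached by 492 genes (3.2%), 1.61% higher and 1.59% lower after prednisolone, and by none of the 10 enzymes. That count was 1132 without P31 and 1004 with array weights, and 1 gene was called after adjustment without C23 and 1 without P31. Exact tests on the 11284 genes with all values also called none, with 346 genes at an unadjusted p under 0.05 by permutation and 298 by the Wilcoxon test. The groups overlapped for all 10 enzymes, while 0.221% of all genes tested showed no overlap. In this bulk tissue, fewer cells of a type and less RNA per cell cannot be told apart.

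**Figure D1:**
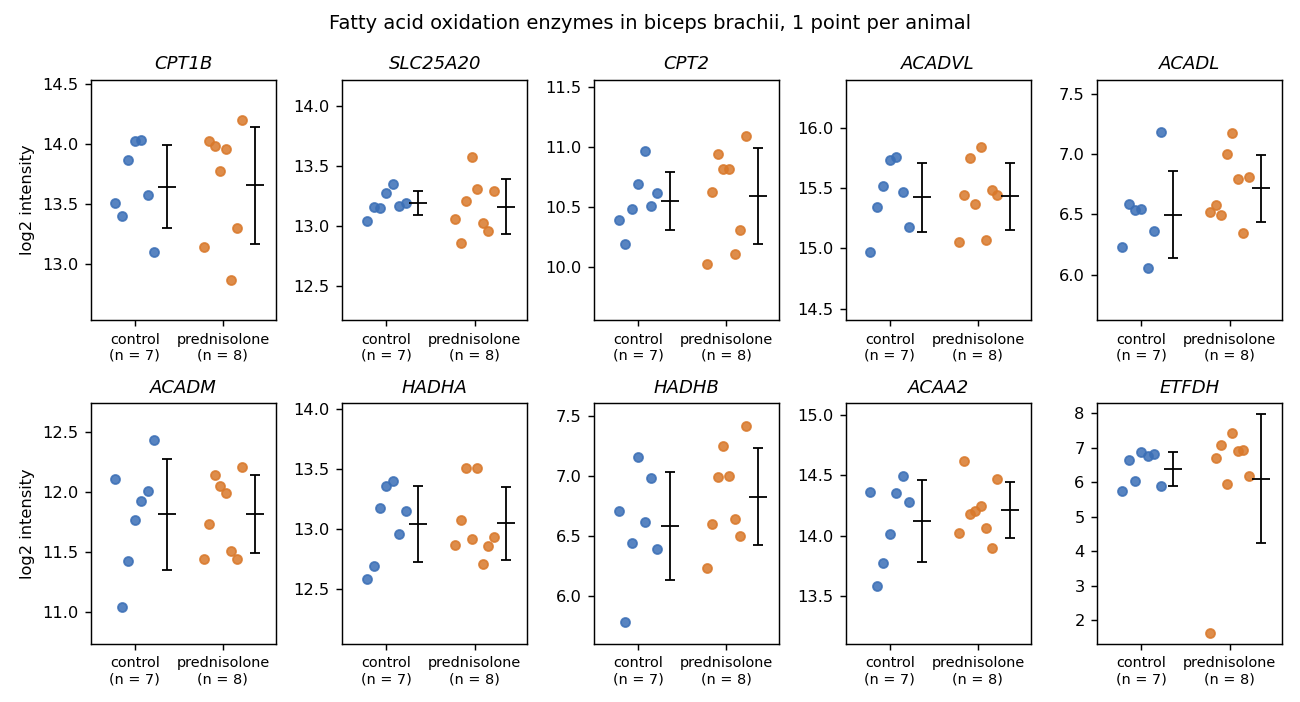
Log2 intensity of each enzyme in every animal, after scaling of the arrays, with 7 controls in blue and 8 prednisolone-treated animals in orange; black marks show the group mean and SD, and the axis differs between genes. The groups overlap in every panel, and the lowest ETFDH value, 1.63, belongs to P25.

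The carnitine shuttle was represented by CPT1B, the muscle form of the outer-membrane transferase that makes acylcarnitine, by the inner-membrane carrier SLC25A20 and by CPT2, which reforms acyl-CoA in the matrix. CPT1B had a log2 intensity of 13.10 at the lowest, 13.58 at the median and 14.04 at the highest in controls, and of 12.87, 13.87 and 14.20 in treated animals. The treated animals spanned the whole control range and beyond it on both sides. The means were 13.65 ± 0.35 (SD, n = 7) and 13.66 ± 0.49 (SD, n = 8), a log2 difference of 0.011 with a 95% interval from -0.45 to 0.47. P30, P25 and P31 held the lower end among treated animals, at 12.87, 13.14 and 13.30.

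SLC25A20 ran from 13.04 through a median of 13.16 to 13.35 in controls, and from 12.86 through 13.13 to 13.57 in treated animals. It was the enzyme with the narrowest spread between animals, with a pooled SD within groups of 0.18. This SD was above that of 6.72% of genes with values on all arrays and rated well above background on every treated array. The SLC25A20 difference was -0.029 (95% interval -0.27 to 0.21), so that the interval ran from 0.83-fold to 1.15-fold.

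CPT2 ran from 10.19 through 10.51 to 10.97 in controls and from 10.02 through 10.72 to 11.09 in treated animals. Here 5 of the 8 treated animals lay above the control median, and P25, P30 and P31 were again the lowest, at 10.02, 10.11 and 10.31. The means of CPT2 were 10.55 ± 0.24 (SD, n = 7) and 10.59 ± 0.40 (SD, n = 8), and they differed by 0.042 (95% interval -0.33 to 0.42).

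Next came the acyl-CoA dehydrogenases, which take the first step of each round: ACADVL for very long chains, ACADL for long chains and ACADM for medium chains. ACADVL ran from 14.97 through 15.47 to 15.76 in controls and from 15.05 through 15.45 to 15.84 in treated animals. The difference of its means, 15.42 ± 0.29 (SD, n = 7) and 15.43 ± 0.28 (SD, n = 8), was 0.0085 with a 95% interval from -0.32 to 0.33.

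ACADL was read at 6.05, 6.54 and 7.19 (lowest, median, highest) in controls and at 6.35, 6.69 and 7.18 in treated animals. The highest single value was that of a control, C24. Its treated mean of 6.72 ± 0.28 (SD, n = 8) exceeded the control mean of 6.50 ± 0.36 (SD, n = 7) by 0.22, with a 95% interval from -0.14 to 0.58. This was within the spread between animals, with an exact two-sided permutation p of 0.214 over 6435 splits.

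ACADM spanned 11.04 to 12.44 in controls around a median of 11.93, and 11.44 to 12.21 in treated animals around 11.86. Both its lowest and its highest value came from controls, C18 and C24. The group means of ACADM were both 11.82, with SDs of 0.46 (n = 7) and 0.32 (n = 8), and their difference of 0.00042 had a 95% interval from -0.43 to 0.43.

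The later steps of a round are carried out on long chains by the trifunctional protein, whose alpha subunit HADHA is hydratase and dehydrogenase and whose beta subunit HADHB is the thiolase. The 2 genes are neighbours in the RefSeq table of cattle genes. HADHA ran from 12.58 through 13.15 to 13.40 in controls and from 12.71 through 12.92 to 13.51 in treated animals. Only 2 treated animals, P27 and P29, lay above the control median, yet these were the highest of all 15, at 13.51 each. Its means were 13.05 in both groups, with SDs of 0.32 (n = 7) and 0.30 (n = 8). The difference of 0.0024 had a 95% interval from -0.35 to 0.35. The second HADHA probe gave a difference of -0.023 (95% interval -0.38 to 0.33) and followed the first across animals with a Pearson r of 0.99 and a Spearman rho of 0.97.

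HADHB ran from 5.79 through 6.62 to 7.16 in controls and from 6.23 through 6.82 to 7.42 in treated animals. C18 had the lowest value and P32 the highest. The mean of HADHB was 6.83 ± 0.40 (SD, n = 8) after prednisolone, against 6.58 ± 0.45 (SD, n = 7) in controls. That difference of 0.24 had a 95% interval from -0.21 to 0.70 and an exact two-sided permutation p of 0.288.

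ACAA2, a thiolase that cuts medium and shorter chains, ran from 13.58 through 14.28 to 14.50 in controls and from 13.90 through 14.19 to 14.62 in treated animals. Its mean was higher in treated animals by 0.091 (95% interval -0.24 to 0.42) while its median was lower, and 2 of the 8 treated animals lay above the control median.

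ETFDH passes the electrons of the first dehydrogenation from electron transfer flavoprotein to ubiquinone. It ran from 5.73 through 6.65 to 6.87 in controls and from 1.63 through 6.80 to 7.44 in treated animals. A single animal set the lower end: P25 was at 1.63, and the other 7 treated animals lay between 5.94 and 7.44. On that array 1 of the 2 spots had a deposited intensity, 3.08, and neither spot was well above background. With P25 the difference was -0.29 (95% interval -1.75 to 1.16), and without it the sign turned, to 0.35 (95% interval -0.21 to 0.90, limma adjusted p = 0.995).

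Over the 10 enzymes, 8 differences were above 0 and the median difference was 0.0097, against 52.1% above 0 and a median of 0.010 over all genes tested. The signs of ACADM, ACADVL, HADHA and CPT1B turned under at least one other scaling of the arrays, and none of the 8 passed the test. Without C20 and P31 the differences ran from -0.47 for ETFDH to 0.28 for ACADL, and that of ACADM was -0.011.

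The intervals show how large a group difference the spread between these animals allows. They do not cover an offset from the extraction method or from the scaling of the deposited values. For 8 of the 10 enzymes the whole 95% interval lay between a 1.5-fold fall and a 1.5-fold rise, as it did for 46.7% of all genes tested and for 64.0% of those rated well above background on every treated array. HADHB and ETFDH were the exceptions, with upper ends at 1.63-fold and 2.24-fold. For ETFDH the lower end was also outside, at 0.30-fold. Without P25 the log2 interval of ETFDH ran from -0.21 to 0.90. Within a 2-fold change lay 9 of the 10, against 73.0% and 90.3%.

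**Figure D2:**
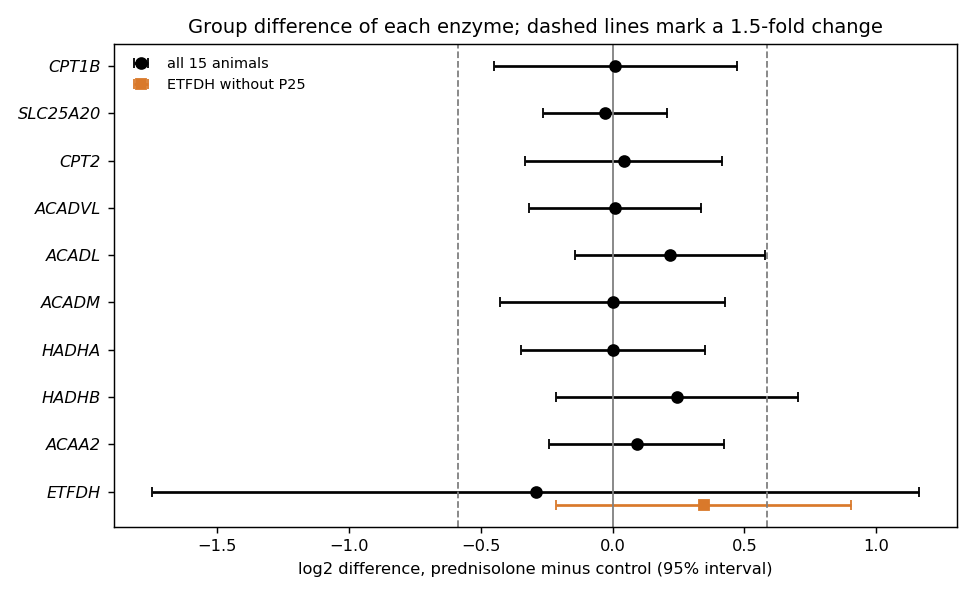
Log2 difference between prednisolone-treated and control animals for each enzyme with its 95% interval from limma, for all 15 animals (black) and for ETFDH without P25 (orange). All intervals include 0, and those of HADHB and ETFDH reach past the dashed lines at a 1.5-fold change.

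The enzymes varied between animals of the same group, and the question was whether they did so together. Group means were removed, and each of the 45 pairs was correlated over the 15 animals, with permutation within groups. The median Pearson r of the pairs was 0.37, the range -0.13 to 0.84, and 42 of 45 were positive. Each enzyme's median r with 9684 other genes well above background lay between -0.0098 and 0.094, as a description over genes that are not independent. The arrays share their scaling, and the animals share their tissue make-up. After adjustment over the 45 pairs, 10 were called by r and 2 by rho.

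**Figure D3:**
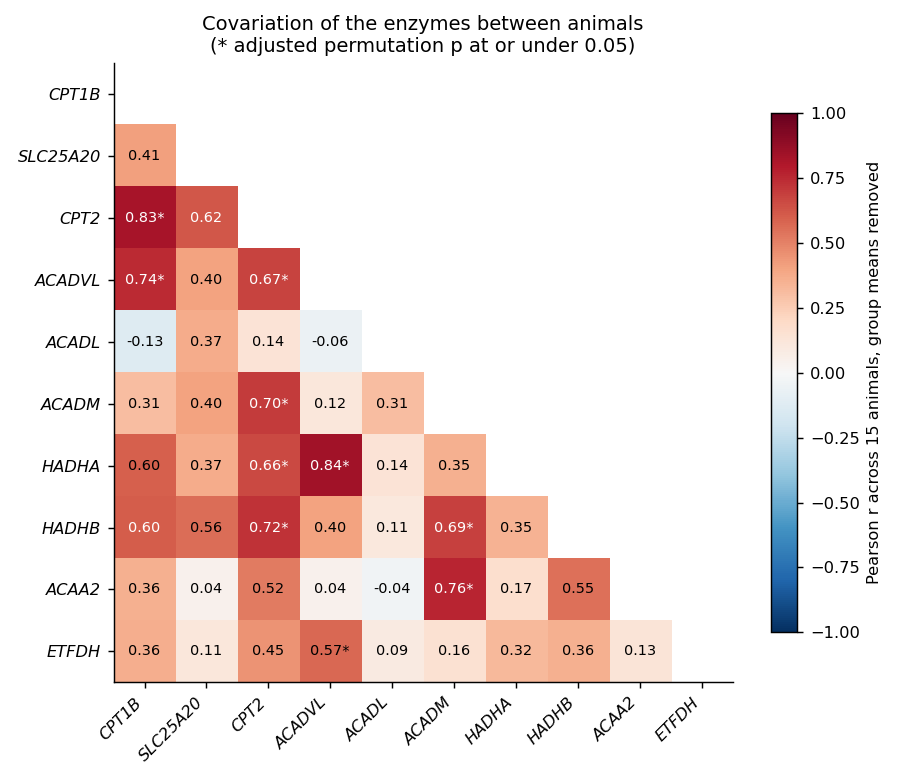
Pearson r of each pair of enzymes over 15 animals after removal of group means, from blue (negative) to red (positive), with an asterisk where the adjusted permutation p was 0.05 or less. The highest values are 0.84 for ACADVL with HADHA and 0.83 for CPT1B with CPT2, and the ACADL row and column hold the lowest.

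The pairs called by both measures were ACADVL with HADHA, successive enzymes on long chains, and CPT1B with CPT2, the opposite ends of the carnitine shuttle. ACADVL and HADHA had an r of 0.84 (permutation p = 0.00042, adjusted 0.0187) and a rho of 0.83 (p = 0.00051, adjusted 0.0227). Within controls r was 0.80 and within treated animals 0.88. Without the 2 animals farthest from the median of ACADVL, C17 and P29, r was 0.74, with an adjusted permutation p of 0.0565.

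CPT1B and CPT2 had an r of 0.83 (permutation p = 0.00083, adjusted 0.0187) and a rho of 0.80 (p = 0.00101, adjusted 0.0227). It was 0.55 within controls and 0.93 within treated animals. C24 was the control that departed from the line. Without C24 and P30, the animals farthest from the median of CPT1B, r was 0.91 (adjusted permutation p = 0.00315). Both relations kept their call when each of the 15 animals was left out in turn, with adjusted permutation p of at most 0.0377 and 0.0490. Without C20 and P31 together, ACADVL with HADHA kept it (r = 0.87, adjusted permutation p = 0.0364) and CPT1B with CPT2 lost it (r = 0.84, adjusted permutation p = 0.0523).

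The other 8 pairs called by r were less stable when single animals were left out. CPT2 was in 4 of them, with HADHB (r = 0.72), ACADM (r = 0.70), ACADVL (r = 0.67) and HADHA (r = 0.66). The rest were ACADM with ACAA2 (r = 0.76), ACADVL with CPT1B (r = 0.74), ACADM with HADHB (r = 0.69) and ACADVL with ETFDH (r = 0.57). ACADM with CPT2 and HADHB with CPT2 lost the call without C18 or P25, with adjusted permutation p of up to 0.0948 for both. ACADM with ACAA2 lost it without C18, C20 or P25 (up to 0.109), and ACADVL with CPT1B without P25 or P30 (up to 0.0630). Without C17 and P29, the animals farthest from the median of ACADVL, ACADVL with CPT1B kept its call (r = 0.82, adjusted permutation p = 0.0281). It lost the call without C20 and P31 (r = 0.78, adjusted permutation p = 0.0523). ACADVL with ETFDH kept it in 8 of the 15 single omissions, ACADVL with CPT2 in 5, HADHA with CPT2 in 4 and ACADM with HADHB in 3. Over all pairs, 2 were called without P25, 3 without C18 and 14 without P26.

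The subunits of the trifunctional protein were not called as a pair: HADHA with HADHB had an r of 0.35 and a rho of 0.39, with adjusted permutation p of 0.369 and 0.305. The HADHB probe was dim, with a mean log2 intensity of 6.71, and its place in the transcript was not checked here, so this r describes the probes. The ACADL probe was dim too, at 6.62, although both were well above background on all 8 treated arrays. ACADL stood lowest among the enzymes in its relations, with r from -0.13 (CPT1B) to 0.37 (SLC25A20). Leaving out P25 moved the relations of ETFDH in both directions. Its r with CPT2 was 0.45 with that animal and -0.061 without, and its r with HADHB was 0.36 with it and -0.11 without. Its r with ACADVL was 0.57 with P25 and 0.64 without, and its r with HADHA was 0.32 and 0.47.

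The mean standardised profile of the enzymes placed P25 (-1.21), C18 (-0.85), P30 (-0.73) and P31 (-0.66) lowest and P29 (0.84) and P32 (0.68) highest, in units of SD. The profile includes ETFDH, whose value in P25, 1.63, was not well above background and lowers the mean of that animal. The low end held a control and 3 treated animals. These same 4 animals had the 4 lowest means of a list of 11 slow-fibre genes, between 15.06 and 15.14 on the log2 scale, while the other 11 animals lay between 15.44 and 15.78.

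Each enzyme was also set against the means of 4 other lists, 40 relations in all. Of these, 6 were called by r after adjustment and none by rho. CPT2 followed the slow-fibre list with an r of 0.82 (permutation p = 0.00133, adjusted 0.0266; rho = 0.75, p = 0.00434, adjusted 0.0600), at 0.72 within controls and 0.86 within treated animals. ACAA2 followed it with an r of 0.76 (permutation p = 2e-04, adjusted 0.0080; rho = 0.75, p = 0.00139, adjusted 0.0556), at 0.86 and 0.77. CPT1B (r = 0.76, adjusted permutation p = 0.0326) and ACADM (r = 0.72, adjusted permutation p = 0.0320) were the others called with this list. Within controls and within treated animals, r was 0.33 and 0.94 for CPT1B and 0.73 and 0.81 for ACADM.

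A list of 21 genes of mitochondrial content, which holds none of the enzymes, was called with CPT2 (r = 0.69, adjusted permutation p = 0.0326) and ACADM (r = 0.71, adjusted permutation p = 0.0474). All 6 calls were lost without C18, and 1 was left without P25, P27, P28, P29 or P30. Without C18 and P30, the farthest animals on the slow-fibre list, r was 0.75 for CPT2 and 0.69 for ACAA2, with an adjusted permutation p of 0.277 for both. ACADL had an r of 0.058 with the slow-fibre list and of 0.0056 with the mitochondrial list.

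**Figure D4:**
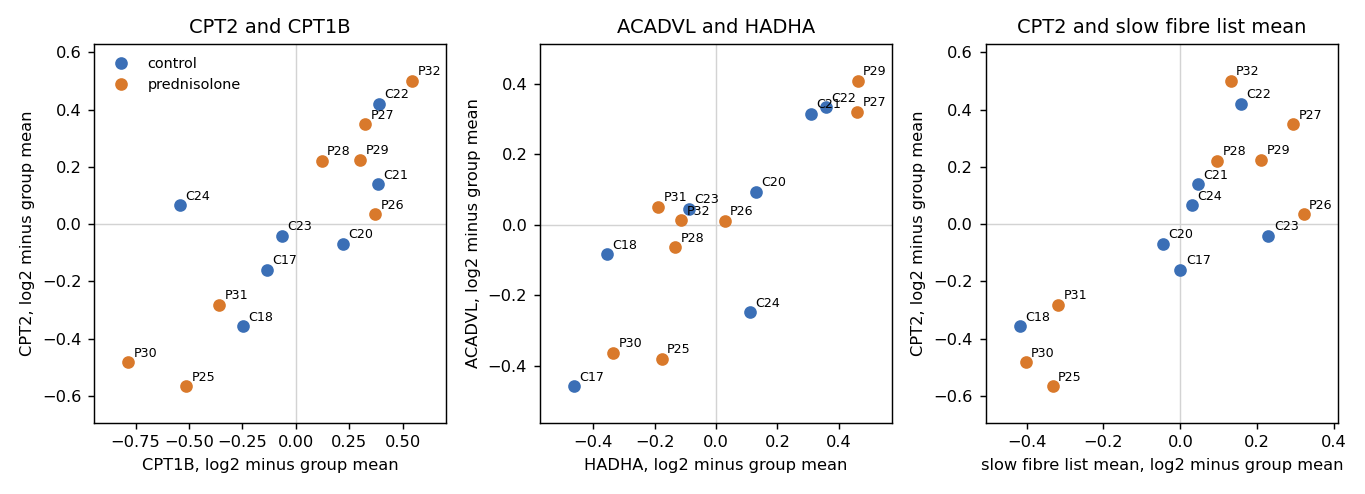
Each point is 1 animal, control in blue and treated in orange, as log2 intensity minus its group mean: CPT2 against CPT1B, ACADVL against HADHA, and CPT2 against the mean of the slow-fibre list. C18, P25, P30 and P31 lie at the lower left in both panels of CPT2, where r is 0.83 and 0.82.

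The lists of testis germ cell and adipocyte genes were not called with any enzyme. Those of thymocyte, hepatocyte, endothelial and leukocyte genes were not set against the enzymes. The r with testis germ cell genes ran from -0.29 for SLC25A20 to 0.26 for ETFDH, and with adipocyte genes from -0.14 for ACADL to 0.47 for HADHB. Within controls the adipocyte r ran from -0.56 for ACADL to 0.87 for CPT1B. Within treated animals it ran from -0.54 for ACADVL to 0.42 for ACAA2, with -0.049 for CPT1B. Among fast-fibre genes, a list added after the data were seen, ACADM had the lowest r, -0.68 (adjusted permutation p = 0.0773), and 0 of 10 relations were called. Without C21 and P25, the animals farthest from the median of that list, 2 were called, HADHB (r = -0.87, adjusted permutation p = 0.0097) and ACADM (r = -0.76, adjusted permutation p = 0.0345). The fast-fibre r ran from -0.64 for ACAA2 to 0.61 for ETFDH within controls. Within treated animals it ran from -0.92 for HADHB to -0.44 for HADHA. The share of spots with a value, also added later, was called with 0 of 10 enzymes, its highest r being 0.52 with HADHA. Its r differed between the groups. In controls it ran from -0.13 for ACAA2 to 0.85 for HADHA, with 0.80 for ACADVL. In treated animals it ran from -0.63 for SLC25A20 to 0.20 for ACAA2, with 0.085 for HADHA and 0.0098 for ACADVL. The part of this share in the relation of ACADVL with HADHA was not tested. With the slow-fibre mean as a covariate the group differences of the enzymes ran from -0.25 for ETFDH to 0.27 for HADHB.

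The 5 genes most like the mean profile of the enzymes, by r over 15 animals among 9684 genes, were TMEM140 (0.90), SMTN (0.88), PPIF (0.88), LARS2 (0.88) and ACBD4 (0.88). PPIF encodes a mitochondrial cyclophilin and LARS2 the mitochondrial leucyl-tRNA synthetase. SMTN encodes smoothelin, a cytoskeletal protein of smooth muscle, and ACBD4 an acyl-CoA binding protein. Being the top of a ranking, these values are a description without a test. The mean profile used for it includes the ETFDH value of P25, which was not well above background.

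The rest of the pathway was followed through lists of related genes, and limma called none of their members. The 15 other mitochondrial beta-oxidation genes had 12 differences above 0, with a median of 0.10 and a range from -0.065 to 0.25. The largest were those of the thioesterases ACOT13 (0.25, 95% interval -0.12 to 0.62) and ACOT2 (0.21, -0.22 to 0.64) and of the isomerase ECI2 (0.21, -0.18 to 0.59). For peroxisomal oxidation 9 of 13 measured genes were above 0, with a median of 0.088. AMACR, a racemase of branched acyl-CoA, had 0.25 (95% interval -0.24 to 0.75), the oxidase ACOX2 had 0.24 and the reductase PECR 0.17.

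Upstream of the mitochondrion, 8 of 17 measured genes of fatty acid uptake, release and activation were above 0, with a median of -0.011. LIPE, the hormone-sensitive lipase, had a difference of -0.48 (95% interval -1.33 to 0.36). The acyl-CoA synthetase gene ACSL5 had -0.40, with 10.56 ± 0.66 (SD, n = 7) in controls and 10.16 ± 0.48 (SD, n = 8) after prednisolone. The 95% interval of this difference reached up to 0.20. The control mean of ACSL5 was raised by C20, at 11.90 against 10.84 in the next control. C20 was also the control with the highest mean of the testis germ cell list. The ACSL5 difference rests in part on this animal and is not given without it. Its medians were 10.22 in controls and 10.02 in treated animals. CPT1A, the liver form of the outer-membrane transferase, had -0.39 (-0.88 to 0.11), beside 0.011 for the muscle form CPT1B.

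Malonyl-CoA inhibits the outer-membrane transferase, and 4 of the 5 genes that set its level were above 0. MLYCD, the decarboxylase that removes malonyl-CoA, was the exception with -0.36 (95% interval -0.74 to 0.019). ACACB, the mitochondrial acetyl-CoA carboxylase, had 0.21 (-0.32 to 0.74), and MID1IP1, an activator of the carboxylases, 0.45 (-0.31 to 1.20). Of 5 genes of ketone body metabolism 4 were above 0, among them BDH1 with 0.36 (-0.73 to 1.45) and OXCT1 with 0.039, while BDH2 had -0.027. The control mean of BDH1, 10.98, was lowered by C18, at 8.73 against 10.65 in the next control. The BDH1 difference rests in part on this animal and is not given without it. Its medians were 11.44 in controls and 11.71 in treated animals.

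Among regulators of the pathway, 12 of 20 measured genes were above 0, with a median of 0.088. The corepressor NCOR1 had 0.38 (95% interval -0.011 to 0.77), the kinase STK11 0.37 (-0.026 to 0.76) and the Mediator subunit MED1 -0.30 (-0.74 to 0.14). The lipid-sensing receptors PPARA and PPARD had 0.38 and 0.36, but PPARA was well above background on 7 treated arrays and PPARD on 4. ESRRA, a nuclear receptor that acts on mitochondrial genes, had 0.039. The coactivator PPARGC1A had -0.29 (-1.50 to 0.93) and ran from 13.10 to 15.71 in controls and from 12.38 to 16.06 after prednisolone. Its relation to the enzymes, added after the data were seen, was called in 0 of 10 cases, with r from -0.50 for SLC25A20 to 0.36 for CPT1B. In the mitochondrial content list 9 of 21 genes were above 0, with a median of -0.019. An unadjusted limma p under 0.05 was reached by 1 gene of this list and by 1 regulator, both higher after prednisolone. In the peroxisomal list 1 gene reached it, lower after prednisolone. The share over all genes tested was 3.2%. The mitochondrial gene was well above background on all 8 treated arrays, and the others on none. The slow myosin gene MYH7 had -0.10 (-0.30 to 0.096).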

How the data were processed

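The authors deposited 1 linear intensity per spot and array. Per the design text the signal was background-subtracted and detrended by Agilent Feature Extraction, version 9.5.1.1 per the file headers, and R 2.11.1 is named in the submitters' processing notes. The sources used here do not give how arrays were brought to 1 scale. Scanner flags were used for the 8 treated arrays; those of the controls were not used here, so control slides are not known. The treated arrays lay on 5 slides, with a consensus correlation within slides of 0.11.

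Intensities were taken as log2, spots of a probe averaged, and each array shifted to an equal 75th percentile over the 14324 probes with values on all arrays. The brightest probe represented a gene. Genes with at least 3 values per group (15357) were tested with limma 3.58.1 in R 4.3.3, without covariates, with Benjamini-Hochberg adjustment and a threshold of 0.05. The median half-width of the 95% intervals was 0.46, limited by the number of arrays. Exact permutation used all 6435 splits, and correlations used 100000 permutations within groups, two-sided. A list mean used its genes with values on all arrays, and the fits were tested on simulated data. Other scalings, probe choices, weights, tests, covariates and left-out animals were tried.

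The enzymes and lists were chosen with earlier results of these data known. The named genes were all 10 enzymes, the 3 largest differences per related list among genes rated well above background on every treated array, PPARA, PPARD, PPARGC1A, ESRRA, PRM1, MYH7 and the 5 most alike. A gene withheld from the lists is not reported here. Sequences and genome coordinates were not used here, so the planned comparisons of promoters and proteins were not made. The RefSeq table gave names and which genes are neighbours.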

Additional observations from a re-analysis of the deposited data

Results flagged for a closer look

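In groups of 7 and 8 animals, the highest or lowest value was compared with its nearest neighbour by Dixon's 95% critical value, over 74 groups of named genes. Chance alone passes this value in about 1 in 20 groups, and 6 values passed it, 1 of them among the 20 groups of the enzymes themselves. That one was ETFDH in P25, at a log2 intensity of 1.63 against 5.94 for the next treated animal, and neither of its spots was well above background.

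C18 was low for 3 of the other genes. BDH1 was at 8.73 there against 10.65 in the next control, SMTN at 12.49 against 13.22 and PPIF at 6.24 against 7.40. SMTN and PPIF had been picked for their likeness to the enzymes, whose mean profile was also low in C18, at -0.85 SD. ACSL5 was high in C20, at 11.90 against 10.84. MID1IP1 was low in P26, at 8.05 against 9.17.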

How the results depend on the processing

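No enzyme was called under any of the alternatives tried, where the lowest adjusted p was 0.768 (ACADL). The differences of ACADL, HADHB and ACAA2 kept their sign throughout, and those of the other 7 turned at least once. On the deposited scale, ACADM had -0.0085, ACADVL -0.00047 and HADHA -0.0066. Quantile normalization gave ACADVL -0.013 and CPT1B -0.016. Cyclic loess gave ACADM -0.022, ACADVL -0.0096, HADHA -0.019 and CPT1B -0.0097. Array weights gave ACADM -0.036, ACADVL -0.071, HADHA -0.062 and CPT2 -0.015. HADHA had -0.010 as the mean of its probes and -0.023 on its other probe, and ACADM had -0.011 without C20 and P31. The cause was not tested.

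With each animal left out in turn, the differences ranged from -0.13 to 0.10 for ACADM, -0.068 to 0.064 for ACADVL, -0.075 to 0.062 for HADHA, -0.080 to 0.12 for CPT1B, -0.030 to 0.12 for CPT2, -0.48 to 0.35 for ETFDH and -0.088 to 0.014 for SLC25A20. The count of called genes ranged from 0 to 1, and was 1 without C23, 1 without P31 and 1 when C20 and P31 were both left out. The count at an unadjusted p under 0.05 ranged from 371 to 1132, the highest without P31. It was 1004 with array weights, 849 without C20 and P31, 293 among genes well above background, where fewer genes were tested, and 298 by the Wilcoxon test.

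The number of called pairs ranged from 2 to 14 with each animal left out, and was 1 without C20 and P31. Without the 2 animals farthest from the median of a pair's first enzyme it was 2, and 39 of 45 pairs kept their sign. No paired analysis was possible because treated and control animals share no replicate numbers. Dim spots limit ETFDH, ACADL, HADHB, PPARA and PPARD.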
